A study of Mus musculus with 6 samples.

Results

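Chemokines are small secreted proteins that draw leukocytes along a gradient. They are named by the spacing of their leading cysteines (CC, CXC, CX3C and XC), and they act through G protein-coupled receptors on the responding cell, while atypical receptors take the ligand up without G protein signalling. In liver they are made by hepatocytes, bile duct cells, stellate cells, endothelium and Kupffer cells, often after tumour necrosis factor, interleukin-1 or interferon, through NF-κB and interferon regulatory factors. The chemokine genes described here were the rows of the gene count table whose symbol is Cxcl or Ccl with a number (and, for Ccl, up to 1 further letter), Cx3cl1 or Xcl1. These were 45 of the 53465 rows and covered 39 symbols, since 7 rows on unplaced scaffolds repeat or extend families of near-identical copies, and all 7 were at 0. Pf4 and Ppbp, which encode chemokines under other symbols, are outside this choice and are given apart.

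RNA sequencing was done on 6 mouse liver cancer cell lines on a C57BL/6 background, each grown from the tumour of a different mouse. The 3 Myc_Utx lines (2A, 2B and 2D) came from KDM6A-deficient tumours, made by hydrodynamic tail vein delivery of a Sleeping Beauty transposon for c-myc with transient Cas9 and a guide against Kdm6a (Utx), the X-linked H3K27 demethylase gene. The 3 Myc_p53 lines (1, 2 and 3) came from tumours made in the same way with the other guide named in their label and served as the reference. Hepatocytes of adult mice were the cells reached in vivo, and the dissociated tumour cells were passaged on collagen until they looked free of other cell types. Every line carries the c-myc transgene and also the knockout of its own group, so the knockout of the Myc_Utx lines and that of the Myc_p53 lines cannot be told apart as the source of a difference. A line stands for 1 tumour, and the RNA is that of cultured cells.

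Total counts ranged from 4656103 to 5473042 in the Myc_Utx lines and from 5370608 to 6937497 in the Myc_p53 lines. The targeted gene, Kdm6a, had 199, 244 and 220 counts in Myc_Utx 2A, 2B and 2D and 440, 348 and 298 in Myc_p53 1, 2 and 3. The normalised Kdm6a levels of the groups overlapped and the difference was not called (log2 fold change −0.39, SE 0.22, edgeR adjusted p=0.243), and an indel made by Cas9 need not lower the mRNA. The 10 hepatocyte markers summed to 9.17, 10.5 and 47.9 CPM in the Myc_Utx lines and 45.0, 30.4 and 34.4 CPM in the Myc_p53 lines. Alb (albumin), the defining one, had 4 to 26 counts, while Fgb (fibrinogen) reached 199 counts in Myc_Utx 2D. The 7 cholangiocyte and progenitor markers summed to 1010, 1690 and 821 CPM against 1610, 306 and 1750 CPM, most of it from Spp1 and Cd24a, and Krt7, Epcam and Prom1 had at most 13 counts in any Myc_Utx line. Of the 11510 genes tested with edgeR, 805 were higher and 885 lower in the Myc_Utx lines at an adjusted p under 0.05. Scaling by total counts alone gave 601 higher and 1009 lower.

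Many chemokine genes respond to NF-κB or interferon, and the stretch before the start of a gene shows which of their letter patterns it holds. RefSeq promoter sequence (GRCm38.p6) was matched by symbol for 27 of the 39 symbols, 16 of which were above 3 counts in some line. Both strands of the 250 bases before each annotated start were searched for the κB letters GGGNNNTTCC and for the interferon-stimulated response element (ISRE) letters TTTCNNTTTC, and matches to 1 pattern may overlap on opposite strands. The κB letters were found in 7 of the 27 genes, namely Cxcl1, Cxcl2, Cxcl3, Cxcl10, Ccl20, Ccl9 and Ccl1. A gene with several starts has several windows, and by windows this was 7 of 33 (21.2%), against 1527 of 32851 windows of all genes (4.65%). ISRE letters were found in Cxcl10, Cxcl14 and Ccl19, in 9.09% of the windows of chemokine genes, against 978 windows of all genes (2.98%). The promoters of 5 of these genes (all but Ccl9 and Ccl1) are printed. Cxcl10 and Ccl20 had lower counts in every Myc_Utx line than in any Myc_p53 line. Cxcl2 did so narrowly, with at most 5 counts against at least 6, and was not called (edgeR without a count filter, adjusted p=0.295). Cxcl1 and Cxcl3 overlapped between the groups. The bearing of the letters on these levels was not tested. Capitals mark κB matches on either strand and, in the leftmost position of Cxcl10, the ISRE match. The runs end at the base before the RefSeq start. They are chr5:90891135-90891244 (plus strand) for Cxcl1, chr5:90903789-90903898 (plus) for Cxcl2, chr5:90785991-90786100 (plus) for Cxcl3, chr1:83116656-83116765 (plus) for Ccl20 and chr5:92348890-92349119 (minus) for Cxcl10.
Cxcl1: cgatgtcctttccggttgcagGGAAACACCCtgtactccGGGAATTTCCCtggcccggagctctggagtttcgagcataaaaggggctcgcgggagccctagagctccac
Cxcl2: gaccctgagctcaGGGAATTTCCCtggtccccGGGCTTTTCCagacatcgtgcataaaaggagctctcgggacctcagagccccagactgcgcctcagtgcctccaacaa
Cxcl3: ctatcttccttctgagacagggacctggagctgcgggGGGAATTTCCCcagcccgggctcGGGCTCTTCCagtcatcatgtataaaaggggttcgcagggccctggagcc
Ccl20: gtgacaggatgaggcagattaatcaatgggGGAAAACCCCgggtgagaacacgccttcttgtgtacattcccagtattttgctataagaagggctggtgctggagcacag
Cxcl10: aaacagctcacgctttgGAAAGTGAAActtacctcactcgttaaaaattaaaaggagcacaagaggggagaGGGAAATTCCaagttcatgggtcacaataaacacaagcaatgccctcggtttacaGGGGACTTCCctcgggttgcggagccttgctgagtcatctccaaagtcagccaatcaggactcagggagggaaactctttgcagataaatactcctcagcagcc
The Cxcl1, Cxcl2 and Cxcl3 runs share 11 letters that hold a κB match on each strand, shifted by 1 base, and each run holds a further match close by. In Cxcl10 the matches to the κB letters began at −159 and −104 and the ISRE match began at −213, counted from the base before the start as −1. The annotation of the count table places the start of Cxcl2 upstream of the RefSeq start, within the printed run. Ccl2, Ccl7, Cxcl16 and Cxcl5 were not among the sequences used here. A match is a description of letters and not of a bound site.

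**Figure D1:**
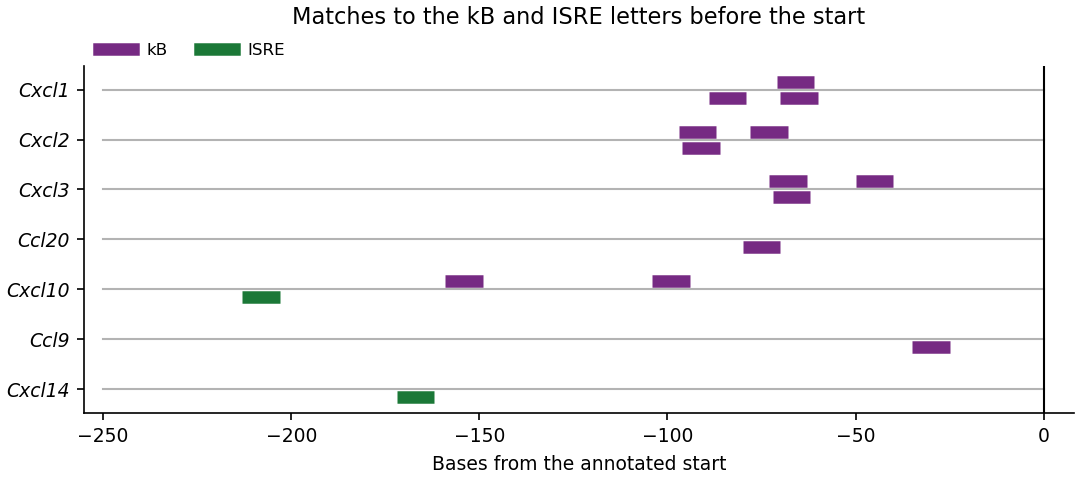
Matches to the κB letters (purple) and the ISRE letters (green) in the 250 bases before the start of 7 chemokine genes that were above 3 counts in some line. The horizontal axis is the distance in bases from the annotated start, matches above a gene's line are on its own strand and matches below are on the opposite strand. In Cxcl1, Cxcl2, Cxcl3 and Ccl20 the matches lie within the last 100 bases.

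About as many rows of chemokine genes had few or no counts as passed 3 counts in these cultures. Of the 45 rows, which cover 39 symbols, 18 had no count in any line, the 7 scaffold rows among them. A further 5 (Ccl8, Ccl11, Ccl12, Ccl24 and Cxcl9) never passed 3 counts. Near-identical copies can split reads, so a 0 in such a row need not mean a silent gene. A count of 3 is the limit that a count of 0 allows and corresponds to 0.428 to 0.668 CPM (read counts scaled to a common library size) in the 6 lines, so expression under that level could not be detected at this depth. Xcl1, Cxcl11, Cxcl13, Ccl1, Ccl4, Ccl19, Ccl22 and Ccl26 were among those at 0. The other 22 genes passed 3 counts in at least 1 line. Of these, 15 passed 3 counts in every Myc_p53 line and 7 did so in every Myc_Utx line. The number above 3 counts was 12, 11 and 13 in Myc_Utx 2A, 2B and 2D and 18, 18 and 20 in Myc_p53 1, 2 and 3. Total counts were higher in Myc_p53 1 and 3 than in the other lines.

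Among the 22 genes above 3 counts, 11 had normalised levels in every Myc_Utx line below those in every Myc_p53 line, none lay the other way and 11 overlapped. Over all genes above 3 counts in some line, 21.5% showed that separation downwards in the Myc_Utx lines, and over the genes tested 20.9% did. Only 9 chemokine genes had enough counts for edgeR's filter, which a gene can pass through the group where it is high. Of these 9, Ccl2, Cxcl16, Cxcl10 and Ccl25 were lower in the Myc_Utx lines at an adjusted p under 0.05, where 7.69% of all genes tested were called lower, and their groups did not overlap. None was called higher, against 6.99% of all genes, and edgeR and DESeq2 each gave 0 higher also at an unadjusted p under 0.05. The median log2 fold change (Myc_Utx over Myc_p53) of all genes tested was −0.01 and 50.8% of them lay below 0. The values of the 9 were 8 below 0 and 1 above. The other 13 genes above 3 counts are described by their counts. Without the filter, edgeR fitted 27 chemokine genes and called 8 lower (3.74% of all genes fitted), adding Ccl6, Ccl7, Ccl20 and Cxcl14. DESeq2 called 7 lower (11.8% of all genes with an adjusted p), which were the same as the 8 except Cxcl14.

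**Figure D2:**
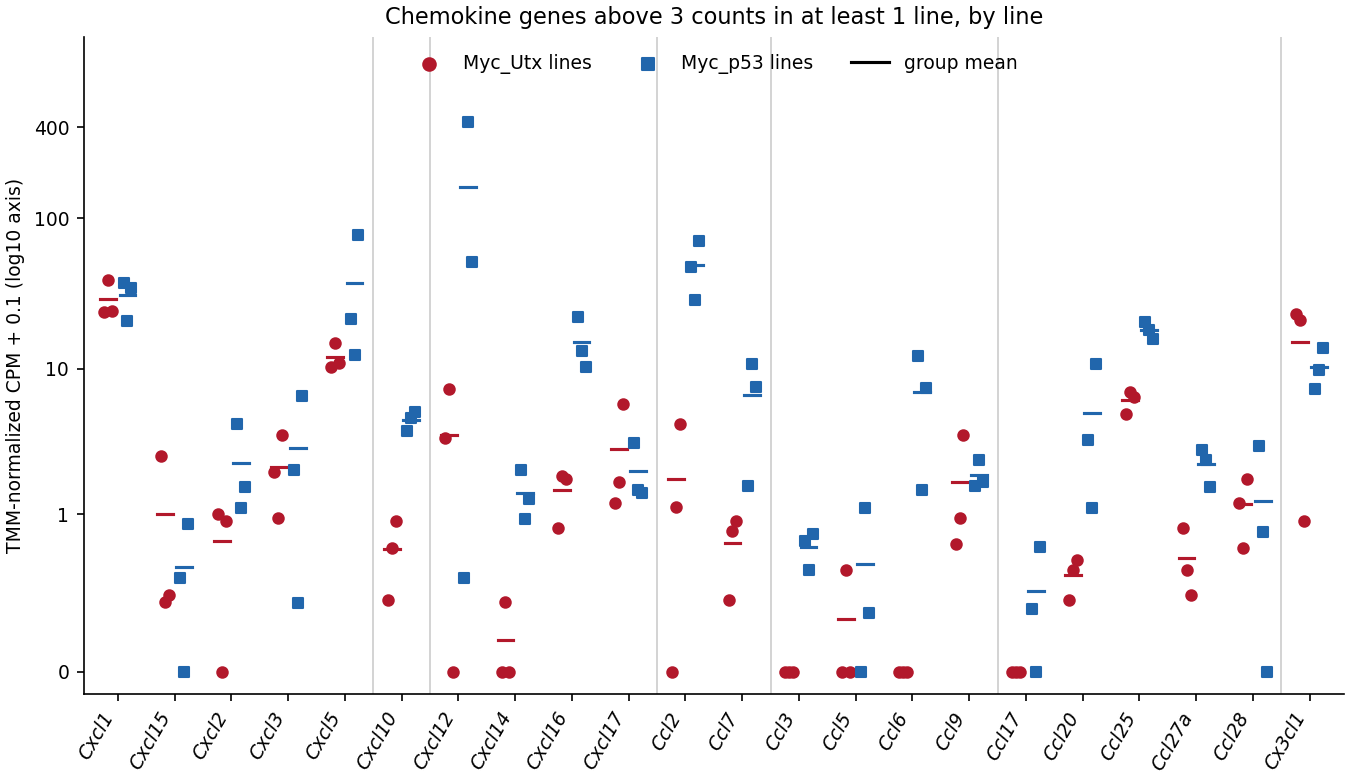
TMM-normalised CPM plus 0.1 on a log10 axis for the 22 chemokine genes above 3 counts in at least 1 line, grouped by role between the vertical lines. Red circles are the 3 Myc_Utx lines, blue squares the 3 Myc_p53 lines and bars the group means. Circles and squares separate fully for 11 genes, with the circles below in each, and Cxcl12 spreads from 0.316 to 431 CPM in the Myc_p53 lines.

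The make-up of the chemokine RNA differed from line to line. Summed over all 45 rows, the chemokine genes had 76.6, 98.7 and 66.8 CPM in Myc_Utx 2A, 2B and 2D and 197, 563 and 321 CPM in Myc_p53 1, 2 and 3. Without Cxcl12 the sums were 73.2, 91.4 and 66.8 CPM against 197, 133 and 270 CPM, so the groups stayed apart when its extreme value in Myc_p53 2 was set aside. These sums are small parts of the libraries, from 0.00644% of all counts in Myc_Utx 2D to 0.0566% in Myc_p53 2. In all 3 Myc_Utx lines Cxcl1 took the most chemokine counts (31.2%, 39.3% and 36.3% in 2A, 2B and 2D). Cx3cl1 was next in 2A and 2B, with 30.5% and 21.3%, and Cxcl5 was next in 2D with 16.3%. The Myc_p53 lines had no common leader. Ccl2 led in Myc_p53 1 with 24.0%, Cxcl12 in Myc_p53 2 with 76.5% and Cxcl5 in Myc_p53 3 with 23.9%, just ahead of Ccl2 with 22.0%.

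**Figure D3:**
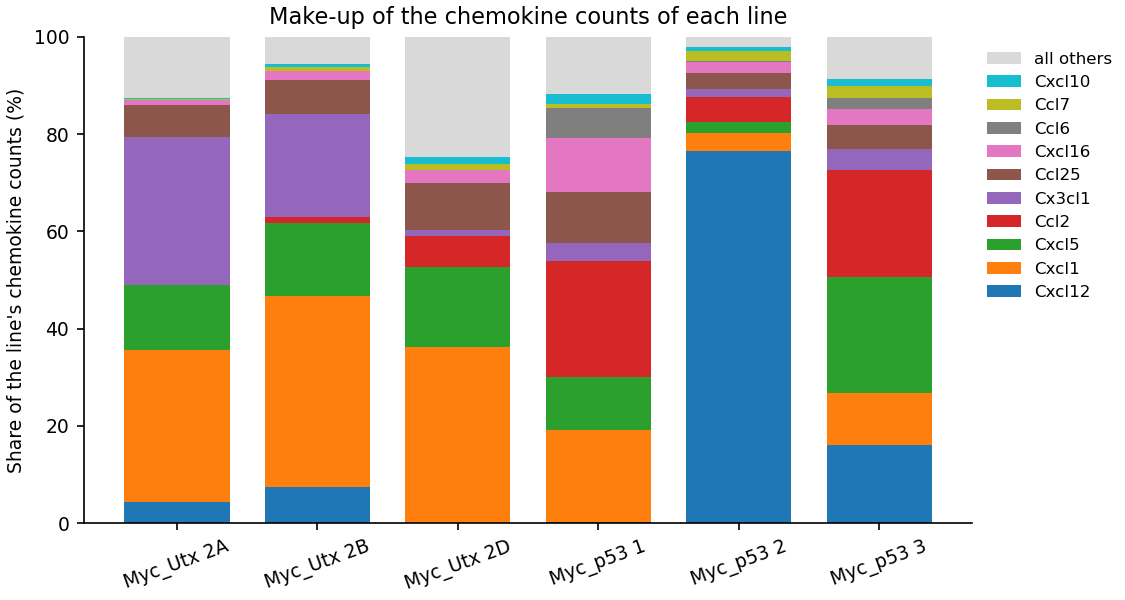
Share of each line's chemokine counts (vertical axis, %) taken by 10 named genes, with all others in grey, for the 6 lines along the horizontal axis. Cxcl1 (orange) is the widest band in the 3 Myc_Utx lines, Cxcl12 (blue) takes 76.5% in Myc_p53 2, and Ccl2 (red) is wide in Myc_p53 1 and 3.

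Levels of different genes were compared per kilobase of the exon length in the table. In the Myc_Utx lines the order of mean levels was Cxcl1 (15.5 CPM per kb), Cxcl5 (6.42), Cx3cl1 (3.83), Cxcl17 (3.80) and Ccl2 (1.57). The lines of Cxcl1, from 12.8 to 20.7 CPM per kb, did not overlap those of Cxcl5, from 5.46 to 7.94, whereas Cx3cl1 ranged from 0.227 to 5.94 and overlapped both its neighbours. In the Myc_p53 lines the order was Ccl2 (43.0), Cxcl5 (19.8), Cxcl12 (19.7), Cxcl1 (16.5) and Ccl7 (8.28). Ccl2, at 41.5, 25.2 and 62.1 CPM per kb, overlapped Cxcl5 (11.5, 6.67 and 41.3) and Cxcl12 (0.0387, 52.7 and 6.28), and Cxcl5, Cxcl12 and Cxcl1 overlapped one another. Ccl2 was thus the highest by mean in one group and in place 5 of the other, while Cxcl1 stood near the top in both.

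The monocyte-attracting CC chemokines act mainly on Ccr2, the receptor by which monocytes leave bone marrow and enter inflamed tissue. Ccl2, the principal Ccr2 ligand, had 0, 6 and 19 counts in Myc_Utx 2A, 2B and 2D and 299, 155 and 496 counts in Myc_p53 1, 2 and 3. Every Myc_p53 line was far above every Myc_Utx line. The mean was 1.78 ± 2.19 CPM (SD, n=3) against 48.9 ± 21.0 CPM (n=3), 27.4-fold lower in the Myc_Utx lines (log2 fold change −4.80, SE 0.96, edgeR adjusted p=0.028). Ccl7, which also binds Ccr2 and lies next to Ccl2, had 1, 4 and 4 counts against 10, 58 and 53. The groups did not overlap and the means differed 10.8-fold. Ccl7 was below the filter, and without it edgeR gave a log2 fold change of −3.36 (SE 0.81, adjusted p=0.0381). Ccl8 and Ccl12, the remaining Ccr2 ligands, stayed at or under 3 counts in all lines. Ccl2 and Ccl7 are the left end of a cluster of 6 chemokine genes on chromosome 11, 82035571 to 82305690, in which the other 4 (Ccl11, Ccl12, Ccl8 and Ccl1) were at or under the floor of 3 counts.

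Among the CXC chemokines without the ELR motif, Cxcl16 was lower in the Myc_Utx lines. It encodes a membrane-anchored ligand of Cxcr6 that is shed by the protease Adam10 and attracts T and NKT cells. Cxcl16 (chromosome 11, 70453983 to 70459984, minus strand) had 4, 10 and 8 counts in Myc_Utx 2A, 2B and 2D and 139, 71 and 72 in the Myc_p53 lines. Every Myc_p53 line was above every Myc_Utx line. The mean was 1.48 ± 0.596 CPM against 15.1 ± 6.09 CPM (SD, n=3 each), 10.2-fold lower (log2 fold change −3.33, SE 0.47, edgeR adjusted p=0.0164). Cxcl16 shares 552 bases with Zmynd15 on the opposite strand, which had 8, 23 and 15 counts against 174, 70 and 59 and was also called lower (log2 fold change −2.39, SE 0.58, edgeR adjusted p=0.0424). Without a stated strand setting, reads of the pair in the shared stretch cannot be told apart, and the part of Zmynd15 in the Cxcl16 value was not tested. Adam10 itself was not called (log2 fold change −0.10), nor was the related protease Adam17 (0.03).

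Cxcl10, a ligand of Cxcr3 on activated T cells that is induced by interferon, was low everywhere but separated the groups. It had 1, 3 and 4 counts in the Myc_Utx lines and 24, 25 and 36 in the Myc_p53 lines. The 3 Myc_p53 lines were close together, at 3.79, 4.63 and 5.13 CPM. The mean was 0.551 ± 0.346 CPM against 4.52 ± 0.677 CPM (SD, n=3 each), 8.21-fold lower in the Myc_Utx lines (log2 fold change −3.01, SE 0.50, edgeR adjusted p=0.0195). The other Cxcr3 ligands lie beside it on chromosome 5 within 44.1 kb and did not accompany it above the floor, since Cxcl9 had at most 1 count and Cxcl11 had none. Cxcl10 lies wholly within Art3 on the other strand, and Art3 had at most 1 count in any line.

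Ccl25 was the most even of the 4 called genes. It encodes the ligand of Ccr9, known for guiding thymocytes and gut-homing T cells. Its counts were 25, 37 and 29 in Myc_Utx 2A, 2B and 2D and 129, 98 and 111 in Myc_p53 1, 2 and 3. The mean was 6.12 ± 1.01 CPM against 18.1 ± 2.28 CPM (SD, n=3 each), 2.96-fold lower in the Myc_Utx lines, with no overlap (log2 fold change −1.56, SE 0.24, edgeR adjusted p=0.0183). Ccl25 (chromosome 8, 4325210 to 4360020) shares 204 bases at one end with Elavl1 on the opposite strand, a far more abundant RNA with 849 to 1171 counts in the 6 lines that was not called (log2 fold change 0.32, edgeR adjusted p=0.0704). How many Ccl25 counts come from Elavl1 reads was not tested.

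**Figure D4:**
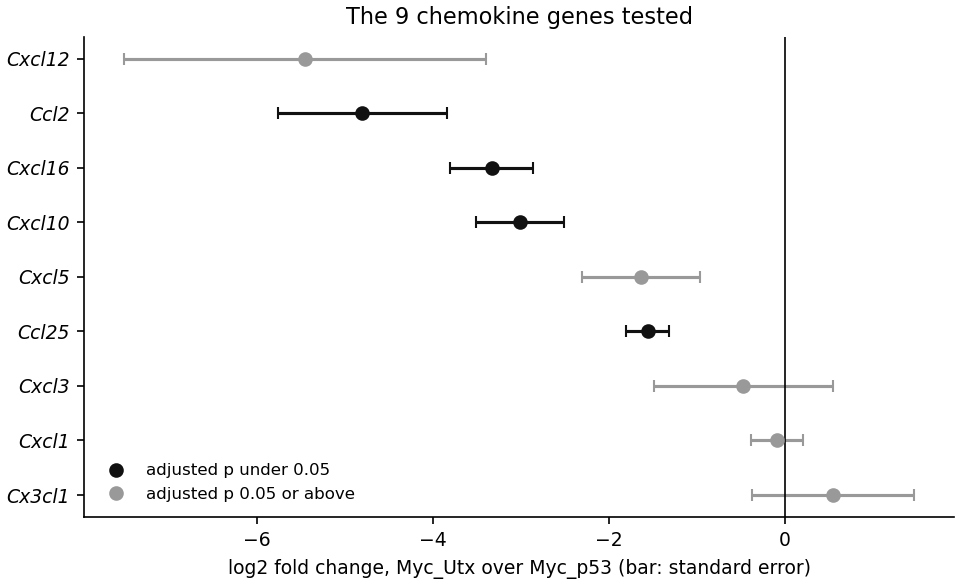
Log2 fold change of Myc_Utx over Myc_p53 lines (horizontal axis) with its standard error (bar) for the 9 chemokine genes tested with edgeR, ordered by value. Black points have an adjusted p under 0.05 (Ccl2, Cxcl16, Cxcl10 and Ccl25, from −4.80 to −1.56) and grey points do not. Cxcl12 has the value furthest from 0, −5.45, and also the widest bar, an SE of 2.06.

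These calls depended on which line was left out. With Myc_Utx 2A, 2B or 2D or Myc_p53 3 left out, edgeR called 0 chemokine genes at an adjusted p under 0.05, and 8, 8, 8 and 6 were lower at an unadjusted p under 0.05. Leaving out Myc_p53 1 gave 4 called lower and leaving out Myc_p53 2 gave 6. The log2 fold changes themselves kept their sign in all 6 of these fits, from −6.34 to −4.19 for Ccl2, −3.55 to −2.97 for Cxcl16, −3.47 to −2.60 for Cxcl10 and −1.66 to −1.41 for Ccl25, with adjusted p values between 0.0217 and 0.0982. Over all genes the same fits called between 1 and 1118 genes lower.

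The ELR CXC chemokines act on Cxcr2 and attract neutrophils. All 5 of their genes within the symbol rule (Cxcl5, Cxcl3, Cxcl15, Cxcl1 and Cxcl2, 147 kb on chromosome 5) were above 3 counts in some line. Cxcl1 had 120, 207 and 109 counts in the Myc_Utx lines and 236, 113 and 242 in the Myc_p53 lines. Once normalised, the lines overlapped, with means of 29.0 ± 8.46 and 30.9 ± 8.75 CPM (SD, n=3 each), and the log2 fold change was −0.09 (SE 0.30, edgeR adjusted p=0.847). Cxcl5 had 51, 79 and 49 counts against 136, 67 and 539. Its groups overlapped through Myc_p53 2, at 12.4 CPM, below Myc_Utx 2B, at 14.8 CPM, and the log2 fold change of −1.63 (SE 0.67) was not called (edgeR adjusted p=0.142). It was −0.51 without Myc_p53 3, which had 76.9 CPM. Cxcl3, with 10, 5 and 16 counts against 13, 1 and 46, was not called either (log2 fold change −0.47, SE 1.02, edgeR adjusted p=0.766) and stood at 0.88 without Myc_p53 3. Cxcl2 had 5, 0 and 4 counts against 27, 6 and 11. Its groups did not overlap and its means differed 3.68-fold, but the fit without the filter did not call it (edgeR adjusted p=0.295). Cxcl15 had 13, 1 and 1 counts against 2, 0 and 6, with overlap. None of these 5 genes was called, and they include both overlapping and separated members.

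Cxcl12, which binds Cxcr4 and the scavenging receptor Ackr3 and is a product of stellate cells and other stroma, varied widely between lines of 1 genotype. It had 17, 39 and 0 counts in Myc_Utx 2A, 2B and 2D and 2, 2325 and 360 in Myc_p53 1, 2 and 3. Myc_p53 1 thus lay below 2 of the Myc_Utx lines, and Myc_p53 2 lay far above all others. The means of 3.56 ± 3.65 and 161 ± 235 CPM (SD, n=3 each) were not separated (log2 fold change −5.45, SE 2.06, edgeR adjusted p=0.117), and the log2 fold change without Myc_p53 2 was −2.82. The 10 fibroblast and stellate cell markers summed to 1950, 2670 and 2680 CPM in the Myc_Utx lines and to 36.2, 3150 and 497 CPM in Myc_p53 1, 2 and 3. Col3a1 held most of that sum in the Myc_Utx lines and in Myc_p53 2, while Col1a1 had 177, 184 and 18 counts against 21, 777 and 1655. The part of stromal cells in the Cxcl12 values was not tested. Of the rest, Cxcl14, a chemokine of epithelia, had 0, 1 and 0 counts against 13, 5 and 9. The ratio of the pooled counts, scaled by the pooled library sizes, was 21.4 (exact 95% interval 3.53 to 876, counting error only), and edgeR without the filter gave an adjusted p of 0.0483. Cxcl17, a mucosal chemokine, had 6, 9 and 26 counts against 20, 8 and 10, with overlap.

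The macrophage-inflammatory CC chemokines attract monocytes and T cells, in part through Ccr1. Ccl6 had no count in the 3 Myc_Utx lines and 77, 8 and 52 in the Myc_p53 lines. Set against a floor of 3 counts in each Myc_Utx line this is at least 11.5-fold lower, and edgeR without the filter gave an adjusted p of 0.0151. Ccl6 overlaps the transcript E230016K23Rik on the opposite strand, which had at most 3 counts. Ccl9, its neighbour, had 3, 5 and 16 counts against 10, 13 and 12, with overlap. Ccl3 had no count in the Myc_Utx lines and 4, 2 and 5 in the Myc_p53 lines, too few for a fold. Ccl5 had 0, 2 and 0 against 0, 6 and 1, and Ccl4 had none. Ccl6, Ccl9, Ccl3, Ccl5 and Ccl4 lie within 139 kb on chromosome 11, and none of them passed the filter. The eosinophil-attracting genes Ccl11, Ccl24 and Ccl26, which act on Ccr3, were at or under 3 counts throughout.

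Of 18 rows of homing CC chemokines, which place lymphocytes and dendritic cells in their tissues, 5 were above 3 counts and Ccl25 alone was tested. Ccl20, the ligand of Ccr6, had 1, 2 and 2 counts in the Myc_Utx lines and 21, 6 and 75 in the Myc_p53 lines. The means differed 14.8-fold without overlap, and edgeR without the filter gave a log2 fold change of −3.80 (SE 0.91, adjusted p=0.0383). Ccl27a, a skin-homing ligand of Ccr10, had 4, 2 and 1 counts against 18, 13 and 11, also without overlap but not called without the filter (edgeR adjusted p=0.0906). Its value is uncertain because near-identical copies, Ccl27b among them, can split its reads. Ccl28, another Ccr10 ligand, had 6, 3 and 8 counts against 19, 4 and 0, and Ccl17, a Ccr4 ligand, had none against 1, 0 and 4. Both overlapped.

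Cx3cl1, the membrane-bound ligand of Cx3cr1 on monocytes and microglia, was the only chemokine gene tested with a log2 fold change above 0. It had 117, 112 and 4 counts in Myc_Utx 2A, 2B and 2D and 46, 53 and 97 in the Myc_p53 lines. Myc_Utx 2A and 2B lay above every Myc_p53 line and Myc_Utx 2D lay below them all, at 0.891 CPM. The log2 fold change was 0.55 (SE 0.92, edgeR adjusted p=0.699), and 1.12 (adjusted p=0.127) without Myc_Utx 2D. Its neighbour Ccl22 was at 0. Outside the symbol rule, Ppbp had 1, 1 and 2 counts against 4, 0 and 30, and Pf4 stayed at or under 3.

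**Figure D5:**
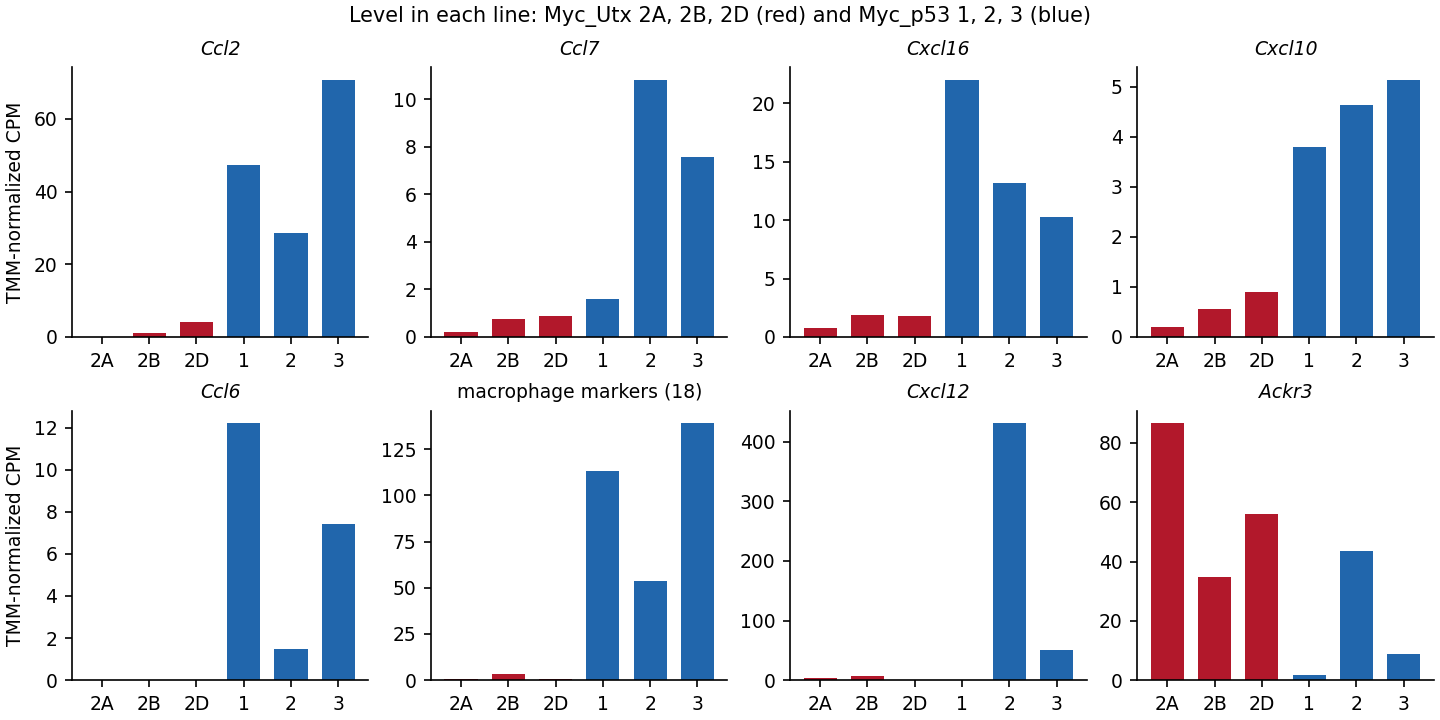
TMM-normalised CPM (vertical axes, each from 0 on its own scale) in Myc_Utx 2A, 2B and 2D (red) and Myc_p53 1, 2 and 3 (blue) for 6 chemokine genes, the sum of 18 macrophage marker genes and the receptor gene Ackr3; a bar is 1 line. The marker sum leaves out Cd14 and Cd68, a choice made after the values were seen. With both, the list sums to 56.6, 41.4 and 38.1 CPM in red and 142, 76.2 and 167 CPM in blue. Ccl2, Ccl6, Cxcl16 and the plotted marker sum are near 0 in red and above 0 in every blue bar. Cxcl12 stands out in Myc_p53 2, and Ackr3 overlaps between the groups.

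Chemokine receptor genes were mostly silent. Of 23 receptor genes, 7 had no count and 3 passed 3 counts in some line. Ackr3, the atypical receptor of Cxcl12 and Cxcl11, had 434, 186 and 251 counts in the Myc_Utx lines and 11, 234 and 63 in the Myc_p53 lines. The groups overlapped through Myc_p53 2, and the log2 fold change of 1.72 (SE 0.99, edgeR adjusted p=0.261) was not called. Ccr1 had none against 3, 2 and 5 counts, and Ackr2, which scavenges inflammatory CC chemokines, had 0, 0 and 8 against 0, 1 and 0. Ackr3 was the 1 receptor gene that passed the filter, so edgeR called 0 of 1 tested and had 0 at an unadjusted p under 0.05, while DESeq2, which fitted 16 receptor genes, called 0 and had 1 at an unadjusted p under 0.05. Without Myc_p53 2, edgeR called 1, Ackr3, higher. Among 6 genes for enzymes that trim or shed chemokines, 4 were tested and Mmp12 (0 counts in every Myc_Utx line against 40, 20 and 70) was lower (edgeR adjusted p=0.0188). Mmp12 is also in the list of macrophage markers described below and is counted again among those called lower there. Dpp4, the peptidase that removes the amino-terminal residues of several chemokines, was at 0 in the Myc_Utx lines and had 58, 16 and 8 counts in the Myc_p53 lines.

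Genes upstream of chemokine transcription were read in the same fit. Of 35 genes of the NF-κB pathway, its inducing cytokines and its common targets, 28 were tested, and 3 were lower and 2 higher in the Myc_Utx lines, near the shares of all genes tested (7.69% lower, 6.99% higher). Without Myc_Utx 2A, 2B or 2D edgeR called 0 of them (8, 10 and 10 lower and 2 higher in each at an unadjusted p under 0.05), and without Myc_p53 3 it called 1. In the fit of all 6 lines the median log2 fold change was −0.48, with 25 of the 28 below 0. At an unadjusted p under 0.05 that edgeR fit had 11 lower and 2 higher. Icam1, an adhesion molecule, had 0, 1 and 0 counts against 150, 404 and 78 (edgeR adjusted p=0.0164). Tlr2, a receptor for bacterial lipoproteins, had 13, 7 and 4 counts against 61, 109 and 56 (log2 fold change −2.95, SE 0.56, edgeR adjusted p=0.0258). Birc3, an inhibitor of apoptosis, was also lower (log2 fold change −1.68, SE 0.35, edgeR adjusted p=0.0293). Tnfrsf1a, the main receptor of tumour necrosis factor, and Nfkbib, an inhibitor of NF-κB, were higher (log2 fold change 0.92, SE 0.21, edgeR adjusted p=0.0383, and 0.81, SE 0.19, edgeR adjusted p=0.0393). The inducing cytokines Tnf and Il1b had at most 1 count in any line. Nfkbia and Tnfaip3, which are feedback inhibitors, and Rela lay below 0 without passing the threshold (log2 fold changes −0.92, −2.52 and −0.54, edgeR adjusted p=0.0509, 0.0636 and 0.0515).

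Of 16 genes from the interferon receptors to the interferon regulatory factors, 14 were tested, 4 were lower and 1 was higher, where 7.69% of all genes tested were lower and 6.99% higher. edgeR called 0 of them without Myc_Utx 2A, 2B or 2D or Myc_p53 3, with 5 lower and 1 higher at an unadjusted p under 0.05 in each of these fits. In the fit of all 6 lines the median log2 fold change was −0.35, with 10 below 0. Irf1, which acts at interferon-induced promoters, was lower (log2 fold change −1.31, SE 0.26, edgeR adjusted p=0.0272), with 143, 121 and 96 counts against 260, 352 and 514. Ifngr1, a chain of the interferon-γ receptor, was lower (log2 fold change −1.01, SE 0.21, edgeR adjusted p=0.0308). The receptor kinase genes Jak2 and Jak1 were lower too (log2 fold change −0.99, edgeR adjusted p=0.0344, and −0.73, edgeR adjusted p=0.0363). Irf3 was higher (log2 fold change 0.73, SE 0.18, edgeR adjusted p=0.0451). Members of the list thus lay on both sides of 0.

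Macrophages make several of these chemokines, and their marker RNA moved with the groups. Of 20 macrophage marker genes (21 rows), 11 were tested, 9 were lower and 1, Cd14, was higher in the Myc_Utx lines, where 7.69% of all genes tested were called lower and 6.99% higher. C1qc, Laptm5 and Mmp12 had 0 counts in every Myc_Utx line and passed the filter through the Myc_p53 lines. Without Myc_Utx 2A, edgeR called 1 gene lower over the whole table, so these marker calls also depended on the lines fitted. In 14 rows the Myc_Utx lines lay lower without overlap, against 21.5% of all genes above 3 counts in some line. The list summed to 56.6, 41.4 and 38.1 CPM in Myc_Utx 2A, 2B and 2D and to 142, 76.2 and 167 CPM in Myc_p53 1, 2 and 3. Cd14 and Cd68 held most of the Myc_Utx sum. Without both, in a choice made after the values were seen, the other 18 genes summed to 0.598, 3.18 and 0.445 CPM against 113, 53.9 and 139 CPM. Csf1r, the receptor that macrophages need to survive, had 0, 1 and 0 counts against 259, 39 and 243, and Lyz2 had 0, 5 and 0 against 204, 104 and 337. Ptprc, the pan-leukocyte gene, was at 0 in the Myc_Utx lines and at 1, 2 and 3 counts in the Myc_p53 lines, and Aif1 had at most 1 count. Among the Myc_p53 lines, Csf1r, Lyz2 and the marker sum were lowest in Myc_p53 2. So were Ccl6 (12.2, 1.48 and 7.41 CPM in 1, 2 and 3) and Ccl2 (47.2, 28.7 and 70.7 CPM). Ccl20 (3.32, 1.11 and 10.7 CPM) and Cxcl14 (2.05, 0.927 and 1.28 CPM) were lowest in Myc_p53 2 too. The same held for Cxcl2 (4.27, 1.11 and 1.57 CPM) and Ccl3 (0.632, 0.371 and 0.713 CPM). Ccl7 and Cxcl12 were highest there. Of the other chemokine genes called with the filter, Cxcl16 (22.0, 13.2 and 10.3 CPM) and Ccl25 (20.4, 18.2 and 15.8 CPM) were lowest in Myc_p53 3. Ccl27a (2.84, 2.41 and 1.57 CPM), which was not called, was also lowest in Myc_p53 3. Cxcl10 (3.79, 4.63 and 5.13 CPM) was lowest in Myc_p53 1. The part of macrophage RNA in Ccl2, Ccl6, Cxcl16 and the other lower chemokine genes was not tested, and in bulk RNA fewer cells of a type and less RNA per cell cannot be told apart.

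Some markers of other cell types were also lower in the Myc_Utx lines. Of 8 T and NK cell markers 7 were at 0. Endothelial markers summed to 0.223 to 1.58 CPM per line and neutrophil markers to 0 to 0.713 CPM, and none was tested. Of 10 fibroblast and stellate cell markers, 4 were tested and edgeR called 0. Of 7 cholangiocyte and progenitor markers, 5 were tested and Prom1, a progenitor surface marker, was lower, with 2, 0 and 0 counts against 141, 12 and 98 (edgeR adjusted p=0.0287). Krt19, a bile duct keratin, had 234, 25 and 129 counts against 2088, 325 and 2468, without overlap but not called (log2 fold change −3.22, SE 0.95, edgeR adjusted p=0.0653). The 2 hepatocyte markers tested were not called. Without the filter, edgeR also called Krt19 (adjusted p=0.0398), Krt7 (adjusted p=0.0298), the hepatocyte genes Hnf4a (adjusted p=0.0399) and Trf (adjusted p=0.0394) and the fibroblast gene Dcn (adjusted p=0.02) lower in the Myc_Utx lines, where Ccl6, Ccl7, Ccl20 and Cxcl14 were called in the same fit. Over all genes, that fit called 3.74% lower. Hnf4a had 3, 3 and 0 counts against 64, 8 and 47, and Dcn had 1, 3 and 0 against 86, 9 and 109. Other markers of these lists lay higher in the Myc_Utx lines in that fit without being called. Among them were Apoa1 (3, 5 and 3 counts against 0, 1 and 2), Col3a1, Pdgfrb and Sox9 (log2 fold changes 2.09, 1.28, 1.03 and 0.97). The part of these cell states in the chemokine values was not tested.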

How the data were processed

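Whole-transcript RNA counts of 6 cell lines (3 Myc_Utx, 3 Myc_p53) were used. The deposited table holds raw read counts per gene made by the authors, with gene coordinates and a gene length in bases. The submitters' processing notes name Trimmomatic 0.36, STAR 2.5.3a, featureCounts 1.6.3, DESeq2 1.20.0 and the build GRCm38 (mm10). The strand setting is not given in the sources used here, so antisense neighbours can share reads. The length column equals the union of exons for all 45 chemokine rows.

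The groups were taken from the labels. The counts were fitted over the whole table with edgeR 4.0.16 in R 4.3.3 (filterByExpr with a minimum count of 10, TMM scaling, quasi-likelihood F test, no covariate), which tested 11510 genes, and p values were adjusted by Benjamini-Hochberg over all of them at a threshold of 0.05. The SE of an edgeR log2 fold change was taken as its absolute value divided by the square root of the F statistic. Levels are TMM-normalised CPM, and a fold between group means is a ratio of mean CPM. A gene at 0 in a whole group was set to 3 counts per line, which gives a lower bound. Intervals and floors cover counting error only. The biological coefficient of variation was 33.4%. In counts simulated for this comparison over 11315 genes, with 194 changed by 2 on the log2 scale, edgeR recovered 67.5% and 2.24% of its calls were false. Those counts were drawn from the fitted model, with far fewer genes changed than were called here. The rates need not hold for the real lines.

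The alternatives were no filter, at least 10 counts in every line, DESeq2 size factors, total counts alone, DESeq2 1.42.0, per-line offsets for gene length (natural spline with 5 df, MASS rlm) and each line left out. Per the submitters' description of the design the lines come from tumours of different mice. A p value sets the difference between the groups against the spread between lines within them. The genes named are every chemokine gene above 3 counts in some line, the called genes of the pathway lists, receptors above 3 counts, up to 5 markers with the highest counts per cell type list, and Kdm6a. The chemokine genes, gene lists and tests were chosen with earlier results of these data known. Markers such as Ptprc, Aif1, Prom1, Krt7, Epcam, Hnf4a, Trf and Dcn, other genes at or near 0, uncalled pathway genes and the motif letters were named after their values were seen. Some items are not reported here.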

Additional observations from a re-analysis of the deposited data

How the results depend on the processing

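Under the alternatives that kept all 6 lines, Ccl2, Cxcl16, Cxcl10 and Ccl25 stayed lower at an adjusted p under 0.05 in every fit that held them, with log2 fold changes from −5.11 to −4.77, −3.40 to −3.31, −3.15 to −2.97 and −1.63 to −1.39. The number of chemokine genes called lower (4) became 8 without the filter, 1 with at least 10 counts in every line, which left 3 chemokine genes to test, and 7 with DESeq2. With DESeq2 the counts over all genes were 1281 higher and 1578 lower (805 and 885 with edgeR). The NF-κB pathway genes called (5) became 8 with total counts alone and 10 with DESeq2 (8 lower and 2 higher). The interferon pathway genes called (5) became 3 with length offsets. Gene length and log2 fold change had a Spearman rho of −0.249 across genes, which are not independent replicates, and length offsets gave 691 higher and 591 lower. The cause of these shifts was not tested.

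With each line left out, the calls ranged from 3 to 836 higher and 1 to 1118 lower over all genes, from 0 to 6 lower and 0 higher for chemokine genes, from 0 to 1 for receptors, from 0 to 8 for the NF-κB pathway and from 0 to 5 for the interferon pathway. Fewer lines were fitted in each. The log2 fold change of Cxcl1 ranged from −0.34 to 0.06 and that of Cxcl3 from −1.0 to 0.88. That of Cxcl1 turned positive without Myc_Utx 2A (0.05), Myc_Utx 2D (0.04) or Myc_p53 1 (0.06), and that of Cxcl3 did so without Myc_p53 3 (0.88). No paired analysis was possible because the Myc_Utx and Myc_p53 lines share no replicate numbers and come from different mice. Depth limits the 13 chemokine genes above 3 counts that edgeR could not test with its filter.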
